A study of Homo sapiens with 6 samples.

Results

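The genes of the epithelial-mesenchymal transition (EMT) examined here were measured in chondrocyte cells treated with a histone deacetylase (HDAC) inhibitor. They were 10 in all, the transcription factors *SNAI1*, *SNAI2*, *ZEB1*, *ZEB2*, *TWIST1*, and *TWIST2*, the cadherins *CDH1* and *CDH2*, the intermediate filament *VIM*, and the matrix glycoprotein *FN1*. The members were chosen by gene symbol, with earlier results of these data known, and all 10 were found among the 60623 genes of the count table and passed the filter on low counts, as did 13966 genes in all. *CDH1* passed that filter only through its mocetinostat samples. The cells were TC28a2, an immortalized human chondrocyte line, which was treated for 24 hours with 2 μM mocetinostat or with its solvent DMSO, with 3 samples per condition that the study describes as independent experiments. Mocetinostat inhibits class I HDACs, which remove acetyl groups from histones. The model is 1 immortalized line in culture, and no untreated cells and no other dose or time are analysed here. All 10 are protein-coding genes, and coordinates are those of GRCh38 throughout.

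EMT is the change by which cells held together in a sheet lose their contacts and gain the shape and motility of mesenchymal cells. Transcription factors of the SNAIL, ZEB, and TWIST families repress *CDH1*, which encodes E-cadherin, the adhesion molecule of epithelial sheets, and SNAIL and ZEB proteins do so by recruiting corepressors that include HDACs. Mesenchymal cells carry N-cadherin (*CDH2*), vimentin (*VIM*), and fibronectin (*FN1*) in its place. Chondrocytes arise from mesenchymal progenitors, and SNAIL proteins are known as repressors of cartilage collagen genes.

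The total count per sample was between 4873426 and 11031132 with DMSO and between 1619344 and 5089542 with mocetinostat, and low genes are less precisely known in the smaller mocetinostat libraries. The 10 genes held 1.76% to 1.84% of all counts with DMSO and 2.82% to 2.89% with mocetinostat. Of 15 chondrocyte markers, 12 had more than 3 counts in at least 1 DMSO library and 13 in at least 1 mocetinostat library. *UCMA* was at 0 counts in all 6 libraries. Levels are given as CPM, the counts per 1000000 counts of a library in the genes tested, after TMM scaling, and the terms upregulated and downregulated are kept for genes with an adjusted p under 0.05 (quasi-likelihood test of edgeR, adjusted by Benjamini and Hochberg's method over all 13966 genes) and a log2 fold change (mocetinostat over DMSO) over 1 or under -1. Since RNA was taken from whole cultures, a change in the number of expressing cells and a change in the RNA per cell cannot be told apart for any gene below.

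Of the 10 genes, 3 were upregulated (*CDH1*, *SNAI1*, and *TWIST1*) and 1 was downregulated (*ZEB2*), beside 20.2% upregulated and 8.18% downregulated among all genes tested. A further 4 (*VIM*, *FN1*, *ZEB1*, and *CDH2*) were higher with mocetinostat at an adjusted p under 0.05 but with a log2 fold change under 1, and *SNAI2* and *TWIST2* did not pass the test. An adjusted p under 0.05 in either direction was thus found for 8 of the 10, and for 64.3% of all genes tested. The CPM of the conditions did not overlap for 9 of the 10, all but *TWIST2*, and did not overlap for 66.5% of all genes tested. The shares among so few genes are a description and are not set apart from these backgrounds by any test. They take in *CDH1*, whose call could hardly have gone the other way, since its DMSO counts alone were too low to test.

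**Figure D1:**
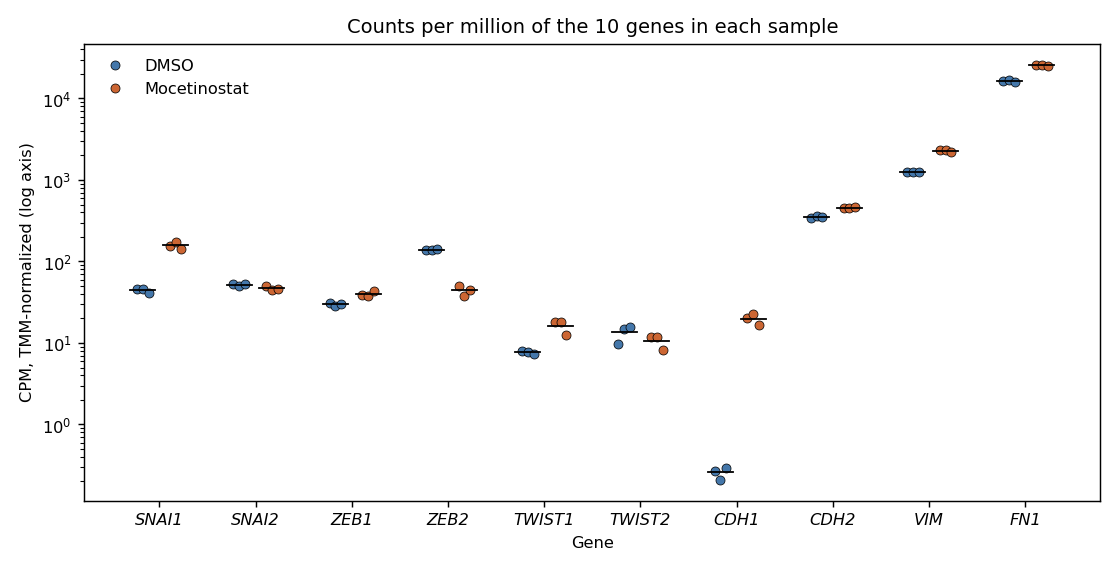
CPM of each of the 10 genes (log axis) in the 3 DMSO samples (blue) and the 3 mocetinostat samples (orange). Points are samples and bars are means; *CDH1* moved from a mean of 0.258 to 19.8 CPM and *ZEB2* from 140.0 to 44.1 CPM, while the points of *TWIST2* overlap.

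*CDH1* had the largest fold change of the 10 genes, from almost no reads to a low but readily counted level. In replicate order, the DMSO libraries held 3, 1, and 2 of its reads and the mocetinostat libraries 101, 37, and 40. The corresponding levels were 0.271, 0.208, and 0.295 CPM with DMSO and 20.02, 22.9, and 16.6 CPM with mocetinostat, or 0.258 ± 0.0448 against 19.8 ± 3.18 CPM (SD, n = 3 each). Every mocetinostat sample was far above every DMSO sample. The gene passed the filter on low counts only through these mocetinostat samples, so its test could hardly have given a fall. The ratio of the summed counts, each divided by the scaled library totals, was 74.1 with an exact 95% interval of 33.4 to 204.5 that covers counting error only. The edgeR log2 fold change was 6.10 (SE 0.44, adjusted p = 1.985e-20), a value that depends on the small count added to each sample because the DMSO counts are so low. *CDH1* (ENSG00000039068) lies on the forward strand at chr16:68737292-68835537 of GRCh38.

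*CDH2*, the cadherin of mesenchymal and neural cells, was already abundant and was moderately higher with mocetinostat. Its read counts were 3754, 1745, and 2363 in DMSO and 2255, 736, and 1109 in mocetinostat. These counts correspond to 339.6, 363.4, and 348.2 CPM against 447.1, 456.1, and 459.6 CPM. The conditions did not overlap, and the log2 fold change was 0.37 (SE 0.075, edgeR adjusted p = 1.191e-05). With no filter on low counts the log2 fold change of *CDH2* was 0.12 and no longer passed (edgeR adjusted p = 0.322). Within each library the log2 ratio of *CDH1* to *CDH2* counts went from -10.05 ± 0.15 with DMSO to -4.52 ± 0.24 with mocetinostat (mean ± SD, n = 3 each). The E-cadherin gene thus gained on the N-cadherin gene by 5.53 on the log2 scale of counts. An exact two-sided permutation test of this difference gave p = 0.1, the smallest that 3 samples against 3 allow. *CDH2* (ENSG00000170558) lies on the reverse strand at chr18:27932879-28177946.

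In the SNAIL family *SNAI1* was upregulated, and *SNAI2* did not pass the test. *SNAI1*, which encodes SNAIL, had 502, 222, and 278 reads in DMSO and 792, 280, and 341 reads in mocetinostat, although the mocetinostat libraries were mostly smaller. Its level was 45.4, 46.2, and 41.0 CPM in the DMSO samples and 157.0, 173.5, and 141.3 CPM in the mocetinostat samples, with no overlap. This was a log2 fold change of 1.83 (SE 0.11, edgeR adjusted p = 2.716e-24). It was upregulated under all 15 alternative settings, in which the log2 fold change ranged from 1.57 to 2.36.

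*SNAI2*, which encodes SLUG, had 586, 242, and 358 reads in DMSO and 254, 72, and 111 reads in mocetinostat. These gave 53.0, 50.4, and 52.8 CPM against 50.4, 44.6, and 46.0 CPM, so that the highest mocetinostat sample lay just under the lowest DMSO sample, both rounding to 50.4. Its log2 fold change was -0.13 (SE 0.13, edgeR adjusted p = 0.3795) and became 0.40 when libraries were scaled to their *GAPDH* count, a setting that raised the median of all genes tested from -0.0021 to 0.53. With no filter on low counts, which lowered that median to -0.25, it was -0.38 at an adjusted p of 0.0237. The log2 ratio of *SNAI1* to *SNAI2* counts, which needs no scaling between libraries, was -0.24 ± 0.12 with DMSO and 1.74 ± 0.19 with mocetinostat. The ratio was below 0 in all 3 DMSO samples and above 0 in all 3 mocetinostat samples, counts not being corrected for the length of the genes. *SNAI1* (ENSG00000124216) lies on the forward strand at chr20:49982980-49988886 and *SNAI2* (ENSG00000019549) on the reverse strand at chr8:48917598-48921740.

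In the ZEB family *ZEB2* was downregulated, the only gene of the 10 to be so called, and *ZEB1* was slightly higher. *ZEB2*, a zinc finger repressor that binds SMAD proteins, had 1544, 663, and 966 reads in DMSO and 249, 61, and 109 reads in mocetinostat. Its level fell from 139.7, 138.1, and 142.4 CPM to 49.4, 37.8, and 45.2 CPM. On the log2 scale the fold change was -1.63 (SE 0.12, edgeR adjusted p = 8.852e-21), and *ZEB2* was downregulated under all 15 alternatives, with values from -1.88 to -1.10. The antisense transcript *ZEB2-AS1*, which overlaps 4.97% of its exon bases, had at most 4 counts in any library.

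*ZEB1*, the other ZEB repressor, had 339, 138, and 205 reads in DMSO and 198, 60, and 105 reads in mocetinostat. Its level was 30.7, 28.7, and 30.2 CPM against 39.3, 37.2, and 43.5 CPM, higher in every mocetinostat sample. The log2 fold change was 0.42 (SE 0.15, edgeR adjusted p = 0.01213). This adjusted p rose to 0.0678 without DMSO replicate 2, to 0.0722 without mocetinostat replicate 3, to 0.0954 with DESeq2, and to 0.4679 with no filter on low counts. The log2 ratio of *ZEB1* to *ZEB2* counts went from -2.23 ± 0.04 with DMSO to -0.14 ± 0.17 with mocetinostat, with no overlap between conditions. *ZEB1-AS1*, which overlaps 4.58% of the exon bases of *ZEB1* on the opposite strand, had 18, 13, and 21 reads in DMSO and 22, 4, and 8 in mocetinostat. *ZEB1* (ENSG00000148516) lies on the forward strand at chr10:31318495-31529814 and *ZEB2* (ENSG00000169554) on the reverse strand at chr2:144364364-144521057.

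*TWIST1* and *TWIST2* encode related basic helix-loop-helix factors of mesenchymal progenitors. *TWIST1* had 88, 37, and 50 reads in DMSO and 90, 29, and 30 in mocetinostat. Its level was 7.96, 7.71, and 7.37 CPM against 17.8, 18.0, and 12.4 CPM, higher in all 3 mocetinostat samples. This was a log2 fold change of 1.07 (SE 0.25, edgeR adjusted p = 1.227e-04). The gene sat at the threshold of 1, and its log2 fold change was 0.94 without mocetinostat replicate 1, 1.00 without mocetinostat replicate 2 (just short of the threshold), 0.95 with libraries thinned to equal totals, and 0.82 with no filter. glmTreat, which tests for a log2 fold change beyond 1, gave an adjusted p of 0.6511.

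*TWIST2* had 106, 72, and 108 reads in DMSO and 59, 19, and 20 in mocetinostat. Its level of 9.59, 14.99, and 15.9 CPM overlapped that of 11.7, 11.8, and 8.29 CPM, with DMSO replicate 1 below the other DMSO samples. Its log2 fold change was -0.31 (SE 0.25, edgeR adjusted p = 0.2867) and 0.23 with scaling to *GAPDH*. Still, the log2 ratio of *TWIST1* to *TWIST2* counts did not overlap between conditions. It was -0.27, -0.95, and -1.10 in the DMSO samples and 0.61, 0.60, and 0.57 in the mocetinostat samples, a difference of 1.37 between means. *TWIST1* (ENSG00000122691) lies on the reverse strand at chr7:19020991-19117636 and *TWIST2* (ENSG00000233608) on the forward strand at chr2:238848032-238910534.

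In all 4 pairs of related genes the first-named gene gained on its partner, by 1.97 for *SNAI1* over *SNAI2*, 2.09 for *ZEB1* over *ZEB2*, 1.37 for *TWIST1* over *TWIST2*, and 5.53 for *CDH1* over *CDH2*, each on the log2 scale of count ratios with 0.5 counts added. The conditions did not overlap in any of the 4. Each pair holds a gene that was upregulated or downregulated by itself, so the ratios largely restate those calls. No share over other gene pairs was computed, and the CPM of single genes did not overlap for 66.5% of all genes tested. The exact two-sided permutation test over 20 arrangements of the samples gave p = 0.1 for each pair, and 0.1 after Benjamini-Hochberg adjustment over the 4 pairs, so that none could pass a threshold of 0.05. The pairs were named in the order of their numbers, which does not fix the direction.

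**Figure D2:**
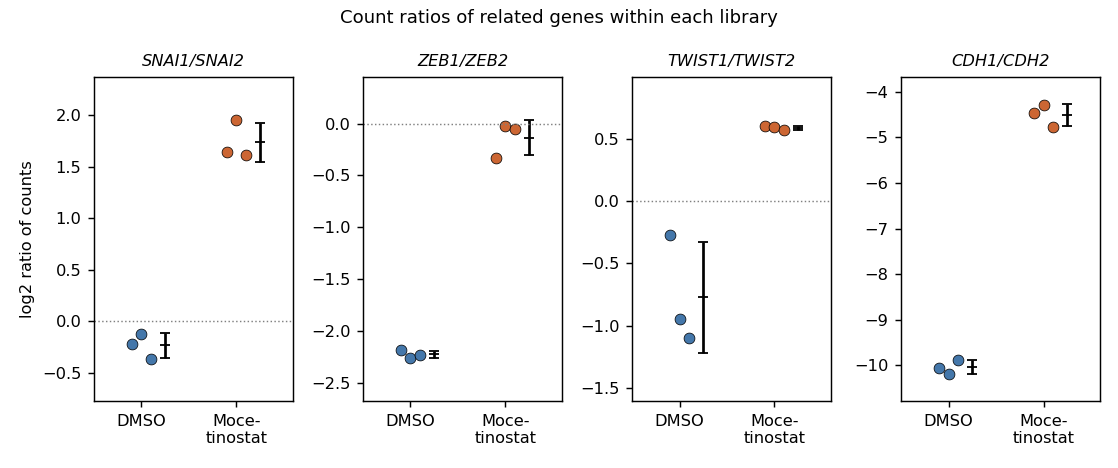
The log2 ratio of counts of 2 related genes within each library, in 4 panels with separate vertical scales. Points are samples and the bars beside them are the mean ± SD of 3; the ratio was higher in every mocetinostat sample than in any DMSO sample, from -2.23 to -0.14 for *ZEB1/ZEB2* and from -0.24 to 1.74 for *SNAI1/SNAI2*.

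*VIM* encodes vimentin, the main intermediate filament of mesenchymal cells, and *FN1* encodes fibronectin, a glycoprotein of the extracellular matrix that integrins bind. Both were high with DMSO and higher with mocetinostat, by less than the fold threshold. *VIM* had 13946, 6007, and 8436 reads in DMSO and 11642, 3756, and 5248 in mocetinostat. These correspond to 1262, 1251, and 1243 CPM against 2308, 2328, and 2175 CPM, a log2 fold change of 0.86 (SE 0.061, edgeR adjusted p = 1.269e-20). The spread within either condition was small beside the difference between them.

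*FN1* had 181600, 80596, and 109265 reads in DMSO and 130752, 41737, and 60989 in mocetinostat. Its level was 16430, 16780, and 16100 CPM against 25920, 25860, and 25280 CPM, a log2 fold change of 0.64 (SE 0.046, edgeR adjusted p = 1.412e-20), or 0.39 with no filter. With scaling to *GAPDH*, *VIM* at 1.39 and *FN1* at 1.17 passed the fold threshold, though relative to the shift of 0.53 in the median of all genes neither did. The antisense gene *VIM-AS1*, over 12.7% of its exon bases, had 1 to 12 counts per library, and ENSG00000234961, over 12.0%, had at most 5. *VIM* (ENSG00000026025) lies on the forward strand at chr10:17228241-17237593 and *FN1* (ENSG00000115414) on the reverse strand at chr2:215360440-215436073.

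Antisense genes overlap exons of other members as well and had few reads. ENSG00000260798 on *CDH1* was at 0 counts in every library, ENSG00000227279 on *CDH2* had at most 2 counts, and ENSG00000232821 on *TWIST1* had at most 3. Small RNA genes ENSG00000275372 and ENSG00000277444 on *ZEB2* were at 0 counts, and ENSG00000288761 on *SNAI2* was not analysed here. Their part in the values of these members was not tested.

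Promoter sequence is shown for *VIM* and *FN1*, which had the highest levels per length of the 10, and for *ZEB1*, for which 1 window was the only one of 9 searched to hold the SNAIL and ZEB binding letters. RefSeq windows (GRCh38.p14) matched 6 of the 10 genes, and only bases upstream of the start that no annotated exon covers are given, on the strand of the gene. The search on both strands was for the E-box CAGGTG or CACCTG, which SNAIL and ZEB proteins bind, the cAMP response element TGACGTCA, the CCAAT box CCAAT or ATTGG, the GC box GGGCGG or CCGCCC, and the TATA box TATAAA or TTTATA. Capitals mark these letters. 
ZEB1, chr10:31318167-31318416, forward strand: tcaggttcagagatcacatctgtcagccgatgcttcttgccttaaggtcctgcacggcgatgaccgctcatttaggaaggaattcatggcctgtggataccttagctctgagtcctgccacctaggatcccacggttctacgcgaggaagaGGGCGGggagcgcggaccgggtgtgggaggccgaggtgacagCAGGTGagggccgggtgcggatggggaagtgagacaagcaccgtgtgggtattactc
VIM, chr10:17227991-17228240, forward strand: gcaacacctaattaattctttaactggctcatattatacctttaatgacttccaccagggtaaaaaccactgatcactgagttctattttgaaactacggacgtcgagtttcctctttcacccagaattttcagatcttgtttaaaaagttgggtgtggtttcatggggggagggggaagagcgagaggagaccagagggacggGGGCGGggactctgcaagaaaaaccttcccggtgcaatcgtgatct
FN1, chr2:215436074-215436318, reverse strand: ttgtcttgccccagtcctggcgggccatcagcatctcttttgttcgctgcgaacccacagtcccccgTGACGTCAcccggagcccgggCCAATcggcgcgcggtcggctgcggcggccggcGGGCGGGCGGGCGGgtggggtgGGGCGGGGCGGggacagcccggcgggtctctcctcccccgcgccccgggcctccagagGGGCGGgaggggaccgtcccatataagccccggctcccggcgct
In the *ZEB1* window the E-box began 57 bases and a GC box 99 bases before the annotated start. In the *VIM* window there was 1 GC box, 46 bases before the start. In the *FN1* window a cAMP response element stood 183 bases and a CCAAT box 162 bases before the start, followed by 6 GC boxes, some of which overlap each other. Among 35116 RefSeq windows of 250 upstream bases, 17.5% held the E-box, 1.65% the cAMP response element, 32.0% the CCAAT box, 42.6% the GC box, and 10.7% the TATA box. These matches describe the letters only, and binding was not measured.

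Levels can be compared between genes only per length, as CPM per kilobase of the main transcript (CPM/kb). Gene counts take in all annotated exons, which are longer than the main transcript for most of the 10. They span 26151 against 9265 bases for *ZEB2* and 3281 against 2180 for *SNAI2*. The order and overlaps below hold for the main transcript length and can differ with another. With DMSO the order was *FN1* (1959 ± 40.5), *VIM* (581.2 ± 4.43), *CDH2* (87.3 ± 3.00), *SNAI1* (25.9 ± 1.66), *SNAI2* (23.9 ± 0.663), *ZEB2* (15.1 ± 0.235), *TWIST2* (10.1 ± 2.55), *ZEB1* (5.03 ± 0.170), *TWIST1* (4.71 ± 0.182), and *CDH1* (0.0537 ± 0.00931), each as mean ± SD in CPM/kb over 3 samples. The ranges of *SNAI1* and *SNAI2* and those of *ZEB1* and *TWIST1* overlapped, and the other neighbors did not. With mocetinostat the first 5 kept their places, at 3062 ± 42.1 for *FN1*, 1054 ± 38.6 for *VIM*, 113.1 ± 1.61 for *CDH2*, 92.2 ± 9.44 for *SNAI1*, and 21.6 ± 1.37 CPM/kb for *SNAI2*. They were followed by *TWIST1* (9.87 ± 1.94), *TWIST2* (7.89 ± 1.48), *ZEB1* (6.74 ± 0.545), *ZEB2* (4.76 ± 0.632), and *CDH1* (4.13 ± 0.661 CPM/kb). *SNAI1* now stood clear of *SNAI2*, *ZEB2* had moved from sixth to ninth place, and *CDH1*, last in both conditions, overlapped *ZEB2*. The neighbors *TWIST1* and *TWIST2*, and *TWIST2* and *ZEB1*, overlapped as well.

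The choice of scaling moved all 10 fold changes by about the same amount and changed the direction of 2 of them. RLE size factors, library size alone, and DESeq2 gave values close to those of TMM, and scaling to *GAPDH* raised every gene by about 0.53 on the log2 scale. *GAPDH* itself was lower with mocetinostat, at 2953 to 3132 CPM with DMSO and 2034 to 2187 CPM with mocetinostat.

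**Figure D3:**
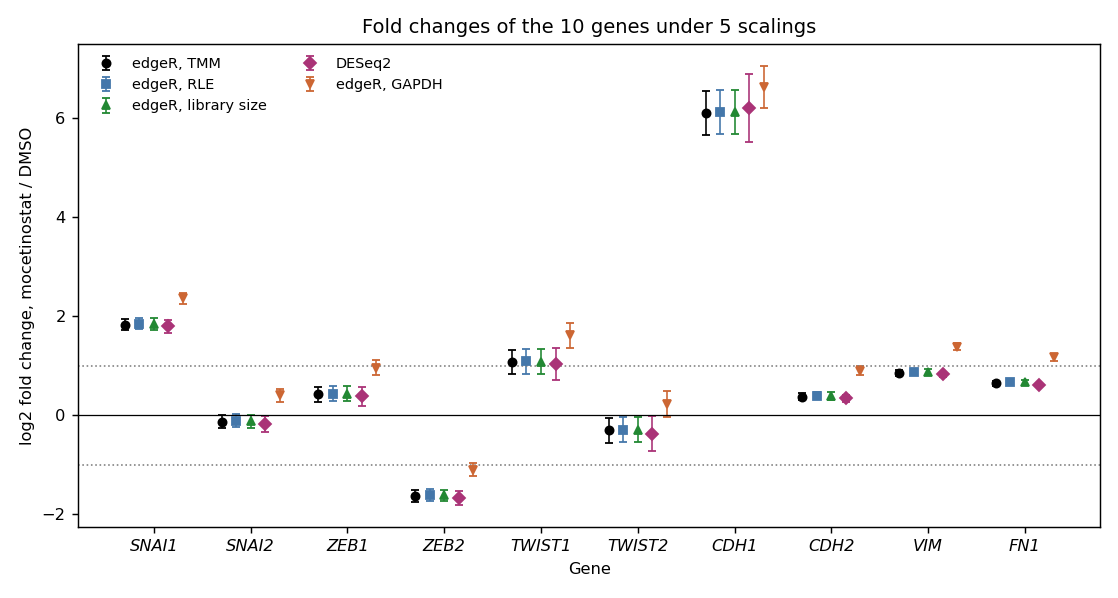
The log2 fold change (mocetinostat over DMSO) of each gene ± SE from edgeR with TMM, RLE, library size, or *GAPDH* scaling and from DESeq2, with dotted lines at 1 and -1. The 4 scalings other than *GAPDH* lie together for every gene, and with *GAPDH* scaling *SNAI2* moved from -0.13 to 0.40 and *TWIST2* from -0.31 to 0.23.

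The partners, cofactors, and targets of the 10 genes were read from lists of 160 genes, of which 124 could be tested, 33 were upregulated, and 13 were downregulated. Among all genes tested, 20.2% were upregulated and 8.18% were downregulated, and no list was set apart from these shares by any test. The median log2 fold change of the 124 listed genes was 0.22, beside -0.0021 for all genes tested. These are calls with TMM scaling, and with *GAPDH* scaling 49 of the listed genes were upregulated and 2 downregulated. From each list the called gene with the highest and that with the lowest log2 fold change and the gene with the highest mean CPM are named, and genes named beyond these were chosen after their values were seen. A gene that had few counts with DMSO could be tested only through its mocetinostat samples. The calls and list medians that such genes enter therefore describe these lists and no more.

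Other transcription factors known to induce EMT moved in both directions. Of 13 genes, 11 were tested, 3 were upregulated, 2 were downregulated, 4 had an adjusted p under 0.05 with a smaller change, and 2 did not pass (median 0.45 on the log2 scale). The highest log2 fold change was that of the forkhead gene *FOXQ1* (3.32, SE 0.56), which had 4, 0, and 10 reads in DMSO and 27, 8, and 22 in mocetinostat. *SOX4*, with the highest mean CPM of the list, rose from a mean of 135.0 to 274.7 CPM (log2 fold change 1.03), near enough to the threshold that the call was lost under 5 alternatives, among them those without DMSO replicate 1 (0.90) and without mocetinostat replicate 3 (1.00, just short of it). *HMGA2*, which encodes an architectural chromatin protein upstream of *SNAI1* and *TWIST1*, fell from a mean of 115.3 to 37.9 CPM (log2 fold change -1.55). The third SNAIL gene, *SNAI3*, was not tested, with 3, 0, and 0 reads in DMSO and 16, 2, and 13 in mocetinostat.

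E proteins pair with TWIST factors, and ID proteins, which lack a DNA-binding domain, take E proteins away from them. Of these 7 genes, all were tested, 3 were upregulated, none was downregulated, and 4 had smaller changes at an adjusted p under 0.05. The 3 were *ID1*, *ID2*, and *ID4*. The other ID gene, *ID3*, went the other way, at a mean of 35.7 against 20.3 CPM (log2 fold change -0.75). *ID4* had 0, 3, and 4 reads in DMSO and 101, 38, and 48 in mocetinostat, a ratio of summed counts of 66.7 (exact 95% interval 31.7 to 168.1). *ID1* had a log2 fold change of 1.86, from a mean of 17.4 to 64.4 CPM. The E protein gene *TCF3*, with the highest mean CPM of the list, was lower at 224.6 against 170.4 CPM (log2 fold change -0.39), a direction that flipped to 0.14 with scaling to *GAPDH*.

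None of the corepressors that SNAIL or ZEB proteins recruit, among them HDACs, histone methyltransferases, and the demethylase KDM1A, was upregulated with TMM scaling, whereas *LOXL2* passed when libraries were scaled to *GAPDH* (1.44). Of 17 genes tested, 3 were downregulated, 10 had smaller changes, and 4 did not pass (median -0.27 on the log2 scale). The histone H3 lysine methyltransferase gene *SUV39H1* fell from a mean of 38.6 to 13.2 CPM (log2 fold change -1.57), and *CHD4*, the ATPase of the NuRD complex, fell from 29.4 to 12.8 CPM (-1.17). The call of *CHD4* was lost with scaling to *GAPDH* (-0.63) and with glmTreat. *LOXL2*, a lysyl oxidase with the highest mean CPM of the list, was higher at 336.6 against 633.8 CPM (0.91). Among genes for proteins that phosphorylate, ubiquitinate, or stabilize SNAIL, 12 were tested, none was upregulated, 1 was downregulated, 6 had smaller changes, and 5 did not pass (median -0.43). The 1 was *COPS2*, a subunit of the COP9 signalosome, at a mean of 132.6 against 60.8 CPM (-1.13), a call of *COPS2* that was lost with scaling to *GAPDH* (-0.60) and with glmTreat. *GSK3B*, the kinase that marks SNAIL for degradation, had the highest mean CPM and did not pass (log2 fold change 0.11, edgeR adjusted p = 0.2853, and -0.14 with no filter).

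Most of the tested genes that act beside *CDH1* in epithelial cells were upregulated. Of 19 epithelial adhesion and polarity genes, 13 were tested, 10 were upregulated, none was downregulated, 1 had a smaller change, and 2 did not pass (median 2.25 on the log2 scale). Of the 10, *CLDN3*, *TJP3*, *EPCAM*, and *MARVELD3* passed the filter only through their mocetinostat samples, so this count and median lean toward upregulated genes. *CLDN3*, a claudin of tight junctions, had 0 counts in every DMSO library and 25, 6, and 9 with mocetinostat. This is 33.3-fold higher against a floor of 3 counts over the DMSO group, and the median of the list was 2.25 at that value too. The exact 95% interval of its ratio of summed counts, which covers counting error only, begins at 25.8. The tight junction gene *TJP3* went from 2, 1, and 6 counts to 265, 80, and 105, and *EPCAM* from 4, 0, and 4 to 42, 17, and 11. At the other end *TJP1* and *KRT8* sat at the threshold with log2 fold changes of 1.01 each. Both calls were lost with DESeq2 (0.98 each), with no filter (0.76 each), and with glmTreat. Without DMSO replicate 1 they were at 0.96 and 0.90, without mocetinostat replicate 2 at 0.99 and 1.00 (just short of the threshold), and without mocetinostat replicate 3 at 1.00 (just short) and 0.99, while *TJP1* was also lost without DMSO replicate 2 (0.96). *KRT8*, a keratin with the highest mean CPM of the list, rose from a mean of 565.4 to 1139 CPM. *DSP*, which encodes desmoplakin, was at 334.1 and 315.8 CPM and did not pass (log2 fold change -0.08, or 0.45 with scaling to *GAPDH*). The other 6 of the list, among them *KRT19*, *CLDN4*, and *CLDN7*, had too few counts to test.

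Regulators that hold cells in the epithelial state were mostly too low to test. Of 11 genes, 3 were tested and all 3 were upregulated, while the remaining 8, *GRHL2* and *ESRP2* among them, were not tested. Of the 3, *OVOL2* and *ELF3* passed the filter only through their mocetinostat samples, so that these calls could hardly have gone the other way. *OVOL2*, a repressor of ZEB genes, had 1, 1, and 2 reads in DMSO and 26, 17, and 9 in mocetinostat, a ratio of summed counts of 32.5 (exact 95% interval 11.9 to 123.5). *GRHL1*, with the highest mean CPM, went from a mean of 2.79 to 19.9 CPM (log2 fold change 2.80). *MIR200CHG*, the host gene of microRNAs that target *ZEB1* and *ZEB2*, was at 0 counts in all 6 libraries, which allows up to 0.271 CPM in the deepest library and 1.86 CPM in the shallowest.

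The summed levels of markers of several cell types were higher in the mocetinostat libraries, not those of epithelium alone. Some of these sums rested largely on a single gene. The summed level of 10 epithelial markers was 2.21 to 2.99 CPM with DMSO and 20.7 to 28.6 CPM with mocetinostat. Of the 10, 4 were above 3 counts in at least 1 DMSO library and 7 in at least 1 mocetinostat library, and 2 were upregulated. These 2 were *EPCAM* and *CLDN3*, the only epithelial markers with enough counts to test. That of 7 endothelial markers went from between 7.60 and 10.6 to between 42.8 and 52.7 CPM, with 3 upregulated. Most of this rise was in *KDR*, from a mean of 0.337 to 24.4 CPM. *CDH5* (3.04 against 3.12 CPM) and *TIE1* (2.28 against 2.56 CPM) did not pass, and *TEK* and *CLDN5* were not tested. That of 6 neuronal markers went from between 12.8 and 16.8 to between 84.5 and 109.1 CPM, with 4 upregulated and *STMN2* and *RBFOX3* too low to test. The sum of 15 chondrocyte markers was 117.9 to 143.9 CPM with DMSO and 267.3 to 309.3 CPM with mocetinostat, with 6 upregulated. *SOX9*, which made most of this sum, was not among the 6, at a mean of 106.4 against 179.8 CPM (log2 fold change 0.77). The 6 skeletal muscle markers summed to 4.88 to 6.66 CPM with DMSO and 9.12 to 10.8 CPM with mocetinostat. Only *MYH3* of these could be tested, and it did not pass, at a mean of 5.38 against 4.36 CPM. The other muscle markers, *DES* among them, had too few counts to test. The 6 leukocyte markers summed to 1.62 to 2.29 CPM with DMSO and 5.35 to 11.2 CPM with mocetinostat, and 1 (*CD14*) was upregulated, with *MYOG*, *CD3E*, and *SPI1* at 0 throughout. *CD14*, the only leukocyte marker tested, rose from a mean of 0.915 to 7.46 CPM. *EPCAM*, *CLDN3*, *PECAM1*, *VWF*, *KDR*, *SYP*, *SYT1*, *GAP43*, *CD14*, *SOX5*, *COL2A1*, *COMP*, and *MATN3* would not have passed the filter on DMSO samples alone. The marker calls therefore lean toward upregulated genes, and 20.2% of all genes tested were upregulated. The part of the marker genes in the rise of *CDH1* was not tested.

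Of 18 other cadherins, 7 were tested, 3 were upregulated, none was downregulated, 3 had smaller changes, and 1 did not pass (median 0.77 on the log2 scale). *CDH22* went from 6, 5, and 6 counts to 122, 45, and 63 counts (log2 fold change 5.04), and *CDH4*, the R-cadherin gene, from a mean of 7.55 to 24.7 CPM (1.72). *CDH13*, which encodes a cadherin without a transmembrane domain and had the highest mean CPM of the list, was lower at 267.6 against 166.1 CPM (-0.68). The placental cadherin gene *CDH3* was the other upregulated one, at 2.72. Of 7 catenins, which link cadherins to actin, 4 were tested and only *JUP*, for plakoglobin, was upregulated, from a mean of 42.0 to 199.7 CPM (log2 fold change 2.25). *CTNNB1*, for beta-catenin and with the highest mean CPM, was lower at 405.6 against 347.4 CPM (-0.22), which flipped to 0.31 with scaling to *GAPDH*. The median of the 4 was 0.13.

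Other genes used as mesenchymal markers moved in both directions. Of 27 genes, 26 were tested, 3 were upregulated, 5 were downregulated, 15 had smaller changes, and 3 did not pass (median -0.01 on the log2 scale). *PDGFRA*, a growth factor receptor gene, rose from 12, 4, and 5 counts to 64, 30, and 23 counts (log2 fold change 3.82), whereas *PDGFRB* fell from a mean of 104.6 to 52.0 CPM (-1.01). Among the collagens of fibrous tissue, *COL3A1* fell the most of the list, from 528.0 to 208.3 CPM (-1.35, and not past the threshold at -0.82 with scaling to *GAPDH*), and *COL1A1* was at 4544 against 3932 CPM (-0.21, or 0.31 with scaling to *GAPDH*). *THBS1*, for the matrix protein thrombospondin-1, had the highest mean CPM and was slightly higher at 5137 against 6325 CPM (0.30). Of the 5 downregulated genes, *TAGLN*, *AXL*, *PDGFRB*, and *DDR2* were between -1.002 and -1.024, at the threshold. Each of these 4 was lost under 6 to 8 alternatives, *PDGFRB* without DMSO replicate 1 (-0.99) or mocetinostat replicate 3 (-0.90), *DDR2* without DMSO replicate 1 (-0.95) or mocetinostat replicate 1 (-0.97), *AXL* without mocetinostat replicate 3 (-0.97), and *TAGLN* without mocetinostat replicate 2, just short of the threshold.

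Beside *VIM*, 10 genes of other intermediate filaments and their linker plectin were read. Of these, 7 were tested, 2 were upregulated, 1 was downregulated, 2 had smaller changes, and 2 did not pass (median 0.27). *INA*, a neuronal filament gene, rose from a mean of 13.1 to 100.9 CPM (log2 fold change 2.98), and the lamin gene *LMNB1* fell from 265.9 to 97.1 CPM (-1.44, and not past the threshold at -0.91 with scaling to *GAPDH*). *PLEC*, with the highest mean CPM, was at 1557 against 1873 CPM (0.27).

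Beside *FN1*, 10 genes for fibronectin receptors and for the enzyme that crosslinks fibronectin were read. Of these, 8 were tested, 4 were upregulated, none was downregulated, 3 had smaller changes, and 1 did not pass (median 0.91). The integrin gene *ITGA4* went from 1, 2, and 0 counts to 19, 4, and 18, a ratio of summed counts of 34.1 (exact 95% interval 10.9 to 172.2). *SDC4*, for the heparan sulfate proteoglycan syndecan-4, rose from a mean of 278.7 to 694.5 CPM (log2 fold change 1.31). *TGM2*, for the crosslinking transglutaminase, rose from 12.9 to 78.0 CPM (2.59) and *ITGB3* from 16.9 to 77.3 CPM (2.20). *ITGA3* had the highest mean CPM, at 996.0 against 1252 CPM (0.33). The integrin genes *ITGA5* (0.51) and *ITGB1* (453.1 against 472.9 CPM, 0.07) changed less than the 4, and *ITGB1* did not pass. *ITGAV* was lower, at 361.3 against 316.4 CPM (-0.19).

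Transforming growth factor beta (TGF-β) is the best-known inducer of EMT, and acts through receptors and SMAD proteins. Of 10 genes for TGF-β ligands, receptors, and SMADs, all were tested, 2 were upregulated, 1 was downregulated, 5 had smaller changes, and 2 did not pass (median -0.09). Both upregulated genes were receptors. *TGFBR3*, for betaglycan, rose from a mean of 4.04 to 45.7 CPM (log2 fold change 3.52) and *TGFBR2* from 42.4 to 142.3 CPM (1.75). *SMAD3*, the transducer of the signal, fell from 408.5 to 194.7 CPM (-1.07), a call near the threshold that was lost under 5 alternatives, among them that without mocetinostat replicate 3, which left it just short of -1. *TGFB1* had the highest mean CPM and was lower at 414.8 against 316.4 CPM (-0.39), or 0.14 with scaling to *GAPDH*.

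**Figure D4:**
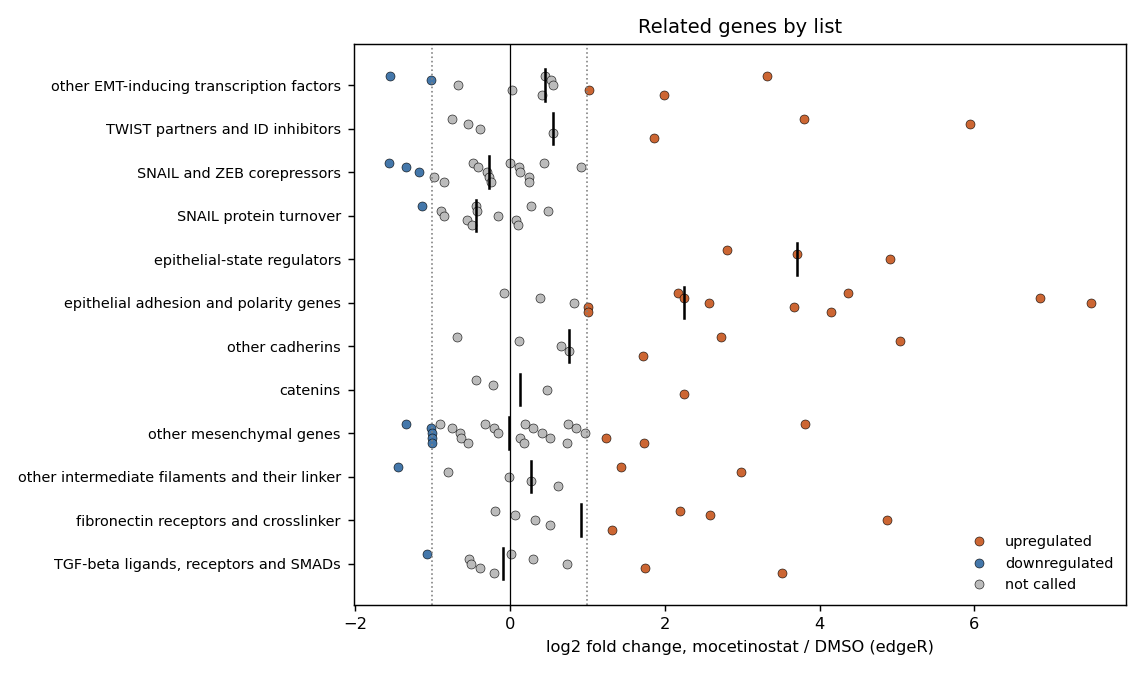
The log2 fold change of each tested gene of the 12 lists, with upregulated genes in orange, downregulated genes in blue, and genes that were not called in gray; black ticks are list medians and dotted lines mark 1 and -1. The medians of the epithelial adhesion genes (2.25) and the epithelial-state regulators (3.71, 3 genes) stand farthest right. Both take in genes that passed the filter only through mocetinostat samples. The median of the other mesenchymal genes is at -0.01. The point of *CLDN3* at the far right rests on 0 DMSO counts and is a fitted value.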

How the data were processed

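RNA-Seq was performed on 6 samples of TC28a2 cells, 3 per condition. The authors deposited raw counts of reads per gene. Per the submitters' processing notes and the methods of the study, reads were aligned to GRCh38 with STAR 2.6.1d and assigned to genes with featureCounts 1.6.4. The strand setting and the treatment of reads that map to several genes are not given in the sources used here, so reads of overlapping antisense genes and of similar copies cannot be told apart to that extent. Total counts ranged from 1619344 to 11031132, and the smaller mocetinostat libraries limit the precision for low genes.

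From these counts, edgeR 4.0.16 (limma 3.58.1, R 4.3.3) computed TMM factors, filtered genes by filterByExpr (minimum count 10), and compared the conditions by its quasi-likelihood test with Benjamini-Hochberg adjustment. The log2 fold change threshold was 1 and the adjusted p threshold 0.05, as in the study. CPM used TMM factors and the counts in the tested genes, 98.9 to 99.5% of each library. Count ratios of related genes added 0.5 counts. Intervals and floors cover counting error only, because they leave out the variation between samples. The sources used here mention no molecular identifiers on the reads. The edgeR p-values test the difference between conditions against the variation among 3 samples per condition, estimated with information shared across genes. Positions and exon overlaps are from GENCODE, matched by identifier for 99.5% of genes, and CPM/kb used the MANE Select transcript. Figures were drawn with matplotlib 3.10.9 in Python 3.11.15.

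The 10 genes and the gene lists were chosen with earlier results of these data known. All 10 genes were named. From each list the called genes with the highest and the lowest log2 fold change and the gene with the highest mean CPM were named, and so were antisense genes with exon overlap and *GAPDH*. Other listed genes named in the text, such as *TGM2* and *COL1A1*, were chosen after their values were seen. The alternatives were scaling to *GAPDH*, to RLE factors, or by library size alone, DESeq2 1.42.0, no filter, at least 10 counts in every sample, glmTreat, a replicate block, thinning to 1619344 counts, and leaving out each sample. The replicate numbers were not used as pairs in the main fit.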

Additional observations from a re-analysis of the deposited data

How the results depend on the processing

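Of the 10 EMT genes, 3 were upregulated and 1 was downregulated, and the upregulated count was 5 with scaling to *GAPDH* and 2 or 3 under every other alternative, while the downregulated count was 1 under all 15. Over all genes, 2827 were upregulated and 1142 downregulated (71.2% of calls upward). Scaling to *GAPDH* gave 4425 and 284 (94.0% upward), a minimum of 10 counts in every sample gave 1620 and 704, no filter gave 2120 downregulated (60.2% upward), and glmTreat gave 465 downregulated (81.7% upward). Without 1 sample the counts were 2842 to 3216 and 1173 to 1267. Of the listed genes, 33 were upregulated, or 21 with 10 counts in every sample, and 13 were downregulated, or 2 with *GAPDH* scaling, 21 with no filter, 7 with 10 counts in every sample, 5 with glmTreat, and 7 after thinning. Only some of the named genes were followed singly under each alternative. Among these, directions reversed with *GAPDH* scaling for *SNAI2* (0.40), *TWIST2* (0.23), *TCF3* (0.14), *CTNNB1* (0.31), *COL1A1* (0.31), *DSP* (0.45), and *TGFB1* (0.14), and with no filter for *GSK3B* (-0.14). Other listed genes slightly under 0 could reverse as well, since *GAPDH* scaling moved the median of all genes to 0.53. The list medians were computed with TMM scaling only. *CDH1* could not be tested at 10 counts in every sample, and the difference of its ratio to *CDH2* was 5.25 with 1 count added, not 5.53. With the replicate block, 2798 genes were upregulated and 1133 downregulated, and the calls of the 10 genes were the same. Deviations of samples with the same number correlated at 0.0078, 0.012, and -0.016, so no deviation shared by number was seen. These values cannot show whether samples with the same number came from the same experiment. Low depth limits the precision of genes with few counts, *CDH1* among them.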

Other observations

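*DES*, for the muscle intermediate filament desmin, had 0, 0, and 1 reads in DMSO and 26, 3, and 13 in mocetinostat, and was too low to test. Of the mesenchymal enzymes, *LOX* rose from 22.9 to 55.5 CPM (log2 fold change 1.24, a call lost with no filter at 0.99 and with glmTreat) while *MMP14* was lower at 102.6 against 55.7 CPM (-0.90, and -1.02 without mocetinostat replicate 3). These genes were chosen after their values were seen.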
